A study of Mus musculus with 8 samples.

Results

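NF-kB is held in check by a set of inhibitors and feedback regulators, and 10 mouse genes of this set are described here in dendritic cells that had taken up ferroptotic tumor cells. They are the I-kappa-B genes Nfkbia, Nfkbib and Nfkbie, the atypical I-kappa-B genes Nfkbid, Nfkbiz and Bcl3, A20 (Tnfaip3) with its binding partners Tnip1 and Tnip3, and the deubiquitinase gene Cyld. They were chosen by name from the 55487 genes of the count table, using no measured value but with earlier results of these data known. All 10 were among the 15411 genes that passed the filter on low counts.

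BMDC are dendritic cells grown from bone marrow of wild-type C57BL/6J mice, female and 6 to 8 weeks old, for 10 days in GM-CSF (20 ng/ml). In the BMDC-fer group these cells were co-cultured for 4 h with Jurkat cells, a human T-cell leukemia line, that had been killed by ferroptosis with ML162 (0.5 µM, 14 h), and the BMDC carrying corpses were then sorted. The control group, BMDC, was left untreated, and its label names no co-culture and no sort. Each group had 4 libraries, described as independently collected, so that p-values over all 8 libraries measure the spread between these samples. The effects of co-culture, uptake and sorting cannot be told apart. Reads of the human corpses that might be counted on mouse genes were not tested for.

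In resting cells, I-kappa-B proteins bind NF-kB dimers and keep them out of the nucleus. Toll-like receptor and cytokine signals activate the IKK kinases, which mark I-kappa-B for degradation, and freed NF-kB then switches on cytokine and maturation genes of dendritic cells. Several of its targets are its own inhibitors: newly made I-kappa-B-alpha and A20 close the loop, and atypical I-kappa-B proteins work in the nucleus on selected promoters.

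Because members of this loop are known NF-kB targets, their promoters are shown for the kappaB consensus, the sequence that NF-kB dimers bind. The RefSeq promoter table for GRCm38.p6, with 250 bases before and 50 bases after each start, held 12 promoters for 9 of the genes, and Nfkbiz was without an entry. The consensus, 10 bases long and searched on both strands, was found in 8 of these 12 promoters (66.7%), against 8.46% of the 32851 promoters in the table. By gene, 8 of 9 (88.9%) held it and 9.55% of 27025 genes did. Nfkbib was the gene with no match in its window. The 250 bases before its RefSeq start lie inside the GENCODE M21 gene and overlap coding sequence of Sirt2, so other promoters of Nfkbib were not searched. A match is a description of the letters, not evidence of binding. The 250 bases before the start of Nfkbia (chr12:55492648-55492897, GRCm38.p6, minus strand, in no GENCODE M21 gene) read 5′ to 3′ as follows, with the match, which begins 29 bases before the start, in capitals.
Nfkbia: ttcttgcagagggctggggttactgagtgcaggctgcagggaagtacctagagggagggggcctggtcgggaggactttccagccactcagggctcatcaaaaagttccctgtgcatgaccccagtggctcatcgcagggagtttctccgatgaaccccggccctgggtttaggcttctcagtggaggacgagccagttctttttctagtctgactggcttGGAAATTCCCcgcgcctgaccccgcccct

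The matches in the other genes are shown in the same way, each with 10 bases on either side, to let the core be compared between members. In Tnip1 overlapping matches fill a palindrome of 12 bases. The matches of Nfkbie (chr17:45555584-45555613, plus strand), Tnip1 (chr11:54962977-54963008, minus strand) and Cyld (chr8:88696863-88696892, plus strand) lay 106, 58 and 155 bases before the RefSeq start, outside annotated genes. Those of Nfkbid (chr7:30422170-30422199 and chr7:30422215-30422244, plus strand), Tnfaip3 (chr10:19015403-19015432 and chr10:19015516-19015545, minus strand) and Tnip3 (chr6:65590334-65590363, plus strand) preceded RefSeq starts that lie inside the GENCODE M21 gene, in introns. That of Bcl3 (chr7:19822734-19822763, minus strand) began 3 bases after the start, in the 5′ UTR.
Nfkbie: gcagcaaacaGGGGGATTCCggaggggcgg
Nfkbid, distal: gccccgccctGGGACTTCCCagagcaccac
Nfkbid, proximal: gggccgaacaGGAATTCCCCgtgcgcgggg
Bcl3: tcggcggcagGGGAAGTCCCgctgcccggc
Tnfaip3, proximal: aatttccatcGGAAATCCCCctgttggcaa
Tnfaip3, distal: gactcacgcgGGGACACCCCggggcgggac
Tnip1: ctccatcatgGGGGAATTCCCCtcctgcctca
Tnip3: gagacatcctGGGAAATCCCagttacatgg
Cyld: ttgaccgagcGGAAAGTCCCttcagccagc

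Total counts per library lay between 39326672 and 50532209, and the 10 genes had between 402 and 8947 counts per library, far above a floor of 3 counts (0.0594 to 0.0763 CPM, counting error only). Libraries of either group split by replicate number, numbers 1 and 2 against 3 and 4, and the labels do not say what separates them. The first principal component held 39.9% and the second 38.5% of the variance. Effects are therefore given over all 8 libraries and within each pair of replicate numbers, the latter with 2 libraries against 2 whose pooled spread sets the error. Libraries of a pair were more alike (chi-square per gene 9.06 to 41 in a group) than libraries of different pairs (134 to 346). The p-values within pairs and of the difference between pairs rest on that smaller spread and do not measure the spread between pairs. Values are CPM, read counts relative to library size after TMM scaling, listed in the order of the replicate numbers. A gene was called at an edgeR adjusted p (quasi-likelihood test, Benjamini-Hochberg over all genes tested) of 0.05 or less with a log2 fold change of at least 0.58 in size. Itgax, which encodes CD11c, was at 748 to 1410 CPM in every library and, of 10 dendritic cell markers, was the least changed (log2 -0.10, edgeR adjusted p = 0.797). The median of these markers was -1.52, and 2 were called lower, Flt3, a growth factor receptor gene (3.92 against 0.229 CPM, log2 -4.06, adjusted p = 0.00207), and Irf4 (-1.42, adjusted p = 0.0193). With the replicate number as a block 8 of 10 fell, and within replicates 1 and 2 and replicates 3 and 4 it was 8 and 9. Of all tested genes 8.13%, 12.9% and 16.2% were called lower in these 3 comparisons, and 9.38% either way over all libraries.

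Over all 8 libraries, 0 of the 10 genes were called, where 9.38% of all tested genes were. In data simulated without the split by replicate pair, this test called 40.2% of genes changed 2-fold. A gene that was not called may therefore still differ. In bulk RNA such as this, fewer cells of a type and less RNA per cell cannot be told apart. Without adjustment 3 had a p under 0.05, where 29.9% of all tested genes did, and DESeq2 called 1, Nfkbid, against 13.3% of the 18167 genes to which it gave an adjusted p. The point estimates were higher in BMDC-fer for 3 genes and lower for 7. The groups did not overlap for 1 gene, Cyld, against 22.9% of all tested genes. For 8 of the 10 genes the effect in replicates 3 and 4 differed from that in replicates 1 and 2 (adjusted p of at most 0.05 for the interaction term in edgeR), against 37.8% of all tested genes. Nfkbia, Nfkbiz, Tnfaip3 and Tnip1 lay higher in BMDC-fer in replicates 1 and 2 and lower in replicates 3 and 4. Nfkbid and Bcl3 were higher, and Nfkbib, Nfkbie and Cyld lower, in 4 of 4 same-numbered pairs.

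**Figure D1:**
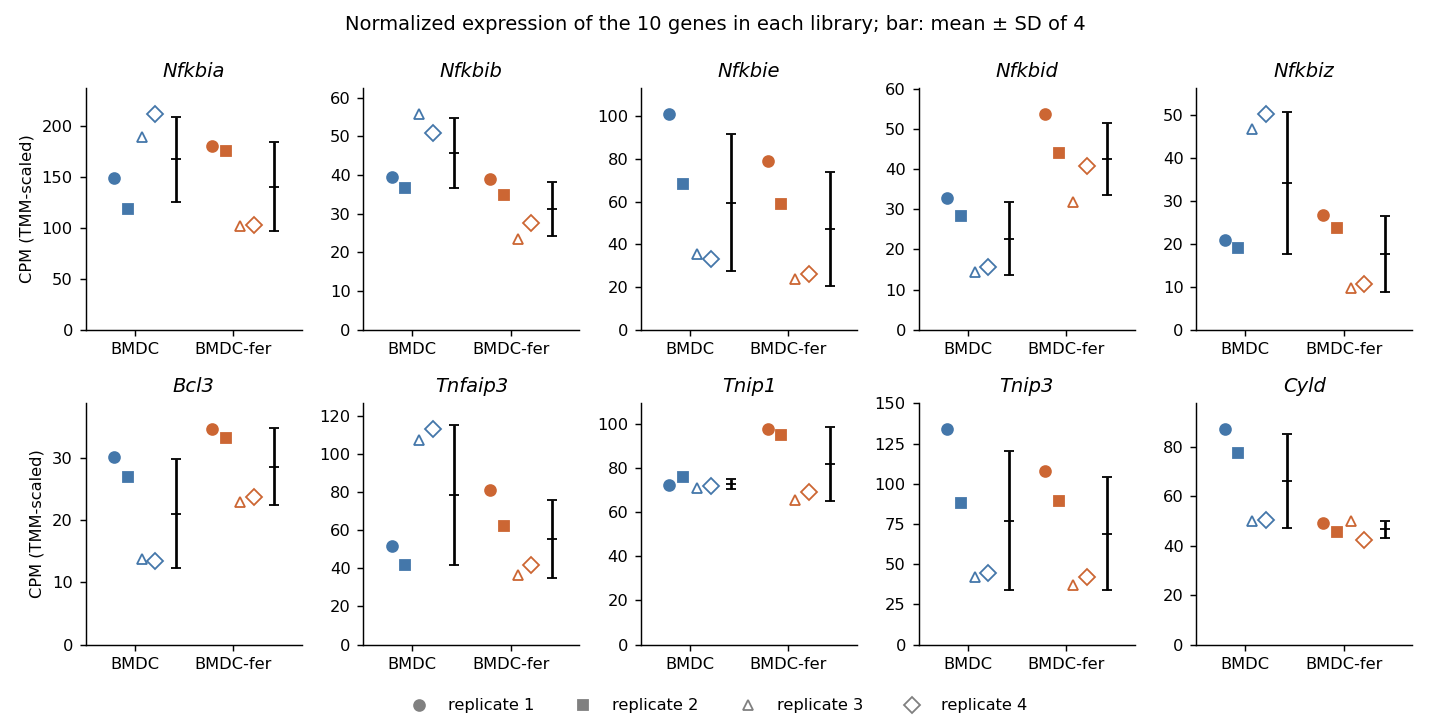
TMM-scaled CPM (vertical axis, from 0) of each of the 10 genes in the 4 BMDC and 4 BMDC-fer libraries, with filled symbols for replicates 1 and 2, open symbols for replicates 3 and 4, and the mean ± SD of each group. For Nfkbiz the open BMDC symbols are the highest (46.6 and 50.1 CPM) and the open BMDC-fer symbols the lowest (9.63 and 10.6 CPM), with the filled ones between them.

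**Figure D2:**
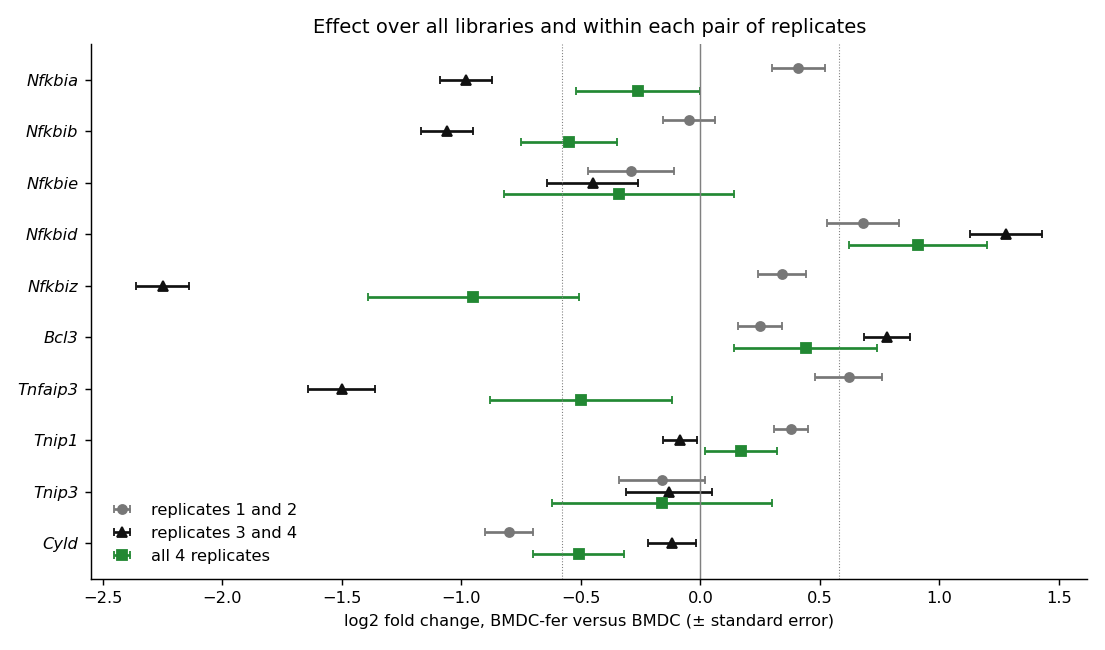
log2 fold change of BMDC-fer versus BMDC (horizontal axis, ± standard error) for each gene over all 4 replicates and within replicates 1 and 2 or 3 and 4, where dotted lines mark the threshold of 0.58. The effects of the pairs have opposite signs for Nfkbia, Nfkbiz, Tnfaip3 and Tnip1 and the same sign, above the threshold, for Nfkbid.

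Within replicates 1 and 2, Nfkbid and Tnfaip3 rose, 2 of the 10 genes against 9.36% of all tested genes, and Cyld fell, 1 of 10 against 12.9%. Within replicates 3 and 4, Nfkbid and Bcl3 rose, 2 of 10 against 16.8%, and Nfkbia, Nfkbib, Nfkbiz and Tnfaip3 fell, 4 of 10 against 16.2%. An adjusted p of 0.05 or less in both pairs with opposite signs was found for 3 genes, Nfkbia, Nfkbiz and Tnfaip3, against 5.67% of all tested genes, a criterion set after the values were seen. Without BMDC replicate 2 only Tnfaip3 met it, since in replicates 1 and 2 Nfkbia was then at 0.27 (edgeR adjusted p = 0.0574) and Nfkbiz at 0.28 (adjusted p = 0.129). Nfkbiz also missed it without BMDC replicate 3, BMDC replicate 4 or BMDC-fer replicate 1, and the 3 genes met it in the other 4 fits without 1 library. The calls in replicates 1 and 2 depended on scaling. When libraries were scaled by size alone, which moved the median log2 fold change of all genes in that pair by -0.192, Cyld was still called, but Tnfaip3 (0.43, edgeR adjusted p = 0.0363) and Nfkbid (0.49, adjusted p = 0.0237) were under the fold threshold, and Nfkbia (0.22, adjusted p = 0.104) and Nfkbiz (0.15, adjusted p = 0.288) no longer passed the adjusted p. The 6 calls in replicates 3 and 4 were made under each of the 3 other scalings too.

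Nfkbia encodes I-kappa-B-alpha, the classical inhibitor that NF-kB itself induces (chr12:55489410-55492647, minus strand, GENCODE M21, GRCm38). Its level was 149, 119, 190 and 212 CPM in BMDC replicates 1 to 4 and 181, 176, 102 and 103 CPM in BMDC-fer replicates 1 to 4. The highest libraries were BMDC replicates 3 and 4 and the lowest their BMDC-fer counterparts, with replicates 1 and 2 of both groups between them. The group means, 168 ± 41.7 and 140 ± 44.2 CPM (SD, n = 4 each, as for the other genes), differed by less than the spread of the libraries (log2 fold change -0.26, standard error 0.26, edgeR adjusted p = 0.528, two-sided exact permutation p = 0.4). Within replicates 1 and 2 it was 1.33-fold higher in BMDC-fer (log2 0.41, standard error 0.11, adjusted p = 0.0142, under the fold threshold). In replicates 3 and 4 it fell 1.97-fold (log2 -0.98, standard error 0.11, adjusted p = 0.000113). These effects differed by -1.39 on the log2 scale (standard error 0.15, edgeR adjusted p = 0.0003).

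Nfkbib encodes I-kappa-B-beta, which is also degraded on IKK signalling but is not known for the fast resynthesis of I-kappa-B-alpha (chr7:28758251-28767512, minus strand). It was at 39.4, 36.7, 55.7 and 50.9 CPM in the BMDC libraries and 39.0, 34.7, 23.5 and 27.5 CPM in the BMDC-fer libraries. Replicates 1 and 2 were nearly level between the groups, whereas replicates 3 and 4 lay apart. Over all libraries the means were 45.7 ± 9.07 and 31.2 ± 6.96 CPM (log2 -0.55, standard error 0.20, adjusted p = 0.101, exact p = 0.0571). The fall was 2.09-fold in replicates 3 and 4 (log2 -1.06, standard error 0.11, adjusted p = 6.95e-05), and replicates 1 and 2 gave -0.0477 (adjusted p = 0.748). The difference between the pairs was -1.02 (standard error 0.15, adjusted p = 0.00119). Nfkbib shares 356 exon bases with the opposite-strand genes Ccer2 and Sirt2, and 13.3% of its 50-base words with Ccer2, so its count is uncertain where strand was not used in counting.

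Nfkbie encodes I-kappa-B-epsilon, a further NF-kB-inducible inhibitor (chr17:45555703-45563169, plus strand). Its level was 101, 68.5, 35.5 and 32.9 CPM in the BMDC libraries and 79.0, 59.0, 23.9 and 26.0 CPM in the BMDC-fer libraries. Replicates 1 and 2 were high and replicates 3 and 4 low in both groups, and each BMDC-fer library lay below the BMDC library of its number. The means of 59.3 ± 31.9 and 47.0 ± 26.7 CPM differed by less than the spread of the libraries (log2 -0.34, standard error 0.48, adjusted p = 0.668). With the replicate number as a block the log2 difference was -0.37 (standard error 0.10, edgeR adjusted p = 0.0568). Within the pairs the log2 differences were -0.29 (adjusted p = 0.233) and -0.45 (adjusted p = 0.0713), and the difference between them, -0.16, had an edgeR adjusted p of 0.653.

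Nfkbid encodes I-kappa-B-NS, a nuclear I-kappa-B protein that acts on selected NF-kB promoters (chr7:30421732-30428746, plus strand). It was at 32.7, 28.2, 14.3 and 15.5 CPM in the BMDC libraries and 53.7, 44.0, 31.7 and 40.7 CPM in the BMDC-fer libraries. Every BMDC-fer library was above the BMDC library of its number, and the groups overlapped only where BMDC replicate 1 exceeded BMDC-fer replicate 3. The means were 22.7 ± 9.16 and 42.5 ± 9.11 CPM (log2 0.91, standard error 0.29, edgeR adjusted p = 0.0763, exact p = 0.0571). With the replicate number as a block, Nfkbid rose (log2 0.97, adjusted p = 0.0144) and was the 1 member called, against 13.0% of all tested genes. DESeq2 called it as well (0.91, adjusted p = 0.0293), as did edgeR without BMDC replicate 1 (1.14, adjusted p = 0.0468). It rose 1.61-fold in replicates 1 and 2 (log2 0.68, standard error 0.15, adjusted p = 0.00574) and 2.42-fold in replicates 3 and 4 (log2 1.28, standard error 0.15, adjusted p = 0.000162). The call in replicates 1 and 2 was lost without BMDC-fer replicate 1 (0.55, adjusted p = 0.0253, under the fold threshold). The larger effect in replicates 3 and 4 (difference 0.59, standard error 0.21, adjusted p = 0.05) stood at the threshold and was lost in 5 of the 8 fits without 1 library (BMDC replicate 1, 3 or 4, BMDC-fer replicate 2 or 4), with values down to 0.41.

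Nfkbiz encodes I-kappa-B-zeta, a nuclear I-kappa-B protein needed for secondary NF-kB targets such as Il6 (chr16:55811375-55838899, minus strand). It was at 20.8, 19.1, 46.6 and 50.1 CPM in the BMDC libraries and 26.7, 23.6, 9.63 and 10.6 CPM in the BMDC-fer libraries. BMDC replicates 3 and 4 were the highest libraries and BMDC-fer replicates 3 and 4 the lowest. The means, 34.1 ± 16.5 and 17.7 ± 8.79 CPM, differed by -0.95 on the log2 scale (standard error 0.44, adjusted p = 0.187, exact p = 0.171). Nfkbiz fell 4.77-fold in replicates 3 and 4 (log2 -2.25, standard error 0.11, adjusted p = 3.2e-06) and was 0.34 higher on the log2 scale in replicates 1 and 2 (adjusted p = 0.0306, under the fold threshold). The effects differed by -2.59 (standard error 0.15, edgeR adjusted p = 3.5e-05), the largest difference among the 10 genes.

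Bcl3 encodes an atypical I-kappa-B protein that binds p50 and p52 homodimers in the nucleus (chr7:19808462-19822770, minus strand). It was at 30.2, 26.9, 13.7 and 13.4 CPM in the BMDC libraries and 34.7, 33.2, 22.9 and 23.8 CPM in the BMDC-fer libraries. As for Nfkbid, each BMDC-fer library exceeded the BMDC library of its number, and replicates 3 and 4 were the lower ones in both groups. The means of 21.1 ± 8.77 and 28.6 ± 6.17 CPM were within the spread of the libraries (log2 0.44, standard error 0.30, adjusted p = 0.35). With the replicate number as a block Bcl3 was at 0.51 (edgeR adjusted p = 0.0638). With the replicate pair as a covariate it was at 0.51 (adjusted p = 0.0174, under the fold threshold). Bcl3 rose 1.72-fold in replicates 3 and 4 (log2 0.78, standard error 0.0954, adjusted p = 0.000194). In replicates 1 and 2 the value was 0.25 (adjusted p = 0.0589). The difference of 0.53 (standard error 0.13, adjusted p = 0.0124) was lost without BMDC replicate 4 (0.52, adjusted p = 0.0535). Bcl3 overlaps antisense transcripts over 161 exon bases, which leaves its count uncertain as for Nfkbib.

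Tnfaip3 encodes A20, a ubiquitin-editing enzyme that shuts off signals upstream of IKK and is itself induced by NF-kB (chr10:19000910-19015657, minus strand). Its level was 51.4, 41.9, 107 and 113 CPM in the BMDC libraries and 80.9, 62.2, 36.3 and 41.6 CPM in the BMDC-fer libraries. The order of the libraries resembled that of Nfkbiz: BMDC replicates 3 and 4 stood highest, and in BMDC-fer replicates 3 and 4 were below replicates 1 and 2. The means, 78.4 ± 36.9 and 55.2 ± 20.4 CPM, differed by less than that spread (log2 -0.50, standard error 0.38, adjusted p = 0.398, exact p = 0.343). Tnfaip3 rose 1.54-fold in replicates 1 and 2 (log2 0.62, standard error 0.14, adjusted p = 0.00792) and fell 2.83-fold in replicates 3 and 4 (log2 -1.50, standard error 0.14, adjusted p = 5.42e-05). The rise in replicates 1 and 2 was under the fold threshold without BMDC replicate 2 (0.48, adjusted p = 0.0477) or BMDC-fer replicate 1 (0.43, adjusted p = 0.0337). The difference between the pairs, -2.12 (standard error 0.20, edgeR adjusted p = 0.000159), was called in 8 of 8 fits without 1 library.

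Tnip1 and Tnip3 encode A20-binding proteins that help restrain signalling to IKK (chr11:54910785-54962917, minus strand, and chr6:65525313-65634040, plus strand). Tnip1 was at 72.4, 76.2, 71.0 and 72.2 CPM in the BMDC libraries and 97.9, 95.2, 65.6 and 69.3 CPM in the BMDC-fer libraries. BMDC libraries lay close together, and BMDC-fer replicates 1 and 2 lay above them. Over all libraries Tnip1 was not called (72.9 ± 2.25 against 82.0 ± 16.9 CPM, log2 0.17, adjusted p = 0.467), with 0.38 (standard error 0.0701, adjusted p = 0.00298, under the fold threshold) in replicates 1 and 2 and -0.0861 (adjusted p = 0.338) in replicates 3 and 4. The effects differed by -0.46 (standard error 0.0994, edgeR adjusted p = 0.0065), which was -0.26 (adjusted p = 0.0793) with libraries scaled by size alone. Tnip3 was at 134, 87.8, 42.1 and 44.5 CPM in the BMDC libraries and 108, 89.1, 37.2 and 41.7 CPM in the BMDC-fer libraries. It separated the replicate pairs rather than the groups, as Nfkbie did, and its group difference (77.0 ± 43.2 against 69.1 ± 35.2 CPM, log2 -0.16, standard error 0.46, adjusted p = 0.845) was -0.16 and -0.13 within the pairs.

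Cyld encodes a deubiquitinase that removes the ubiquitin chains on which IKK activation depends (chr8:88697028-88751945, plus strand). It was at 87.1, 77.5, 49.8 and 50.3 CPM in the BMDC libraries and 49.0, 45.3, 49.8 and 42.2 CPM in the BMDC-fer libraries. The groups did not overlap, but by 0.031 CPM only, since BMDC replicate 3 and BMDC-fer replicate 3 were nearly equal. The means were 66.2 ± 19.0 and 46.6 ± 3.49 CPM (log2 -0.51, standard error 0.19, edgeR adjusted p = 0.12, exact p = 0.0286, the smallest that 4 against 4 can give). With the replicate pair as a covariate the value was -0.46 (edgeR adjusted p = 0.044, under the fold threshold). Cyld fell 1.75-fold in replicates 1 and 2 (log2 -0.80, standard error 0.0997, adjusted p = 0.000462), and replicates 3 and 4 gave -0.12 (adjusted p = 0.339). The difference between the pairs was 0.68 (standard error 0.14, adjusted p = 0.00557), opposite in sign to that of Nfkbib.

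Compared between replicate pairs within a group, 8 of the 10 genes were called in BMDC (36.0% of all tested genes) and 5 of 10 in BMDC-fer (15.4% of all tested genes), by contrasts added after the data were seen. The split into pairs was itself seen in the expression values of these libraries, so calls are partly built in. These contrasts describe the split and do not test it. In BMDC, replicates 3 and 4 had more Nfkbia, Nfkbiz and Tnfaip3 than replicates 1 and 2 (log2 0.59, 1.28 and 1.24) and less Nfkbie, Nfkbid, Bcl3, Tnip3 and Cyld (-1.30, -1.03, -1.08, -1.36 and -0.72). In BMDC-fer the 5 called genes, Nfkbia, Nfkbie, Nfkbiz, Tnfaip3 and Tnip3, were lower in replicates 3 and 4 (log2 -0.81, -1.47, -1.31, -0.88 and -1.33). By the adjusted p alone, 9 of 10 differed in BMDC (54.4% of all tested genes) and 8 of 10 in BMDC-fer (28.9%). Of those under the fold threshold, Nfkbib was higher in replicates 3 and 4 of BMDC (0.49, edgeR adjusted p = 0.00402) and lower in those of BMDC-fer (-0.53, adjusted p = 0.00734), and Bcl3 (-0.54, adjusted p = 0.00375) and Tnip1 (-0.52, adjusted p = 0.00136) were lower in those of BMDC-fer. Nfkbia, Nfkbib, Nfkbiz and Tnfaip3 thus had opposite orders of the replicate pairs in BMDC and BMDC-fer, whereas Nfkbie and Tnip3 had the same order in both.

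**Figure D3:**
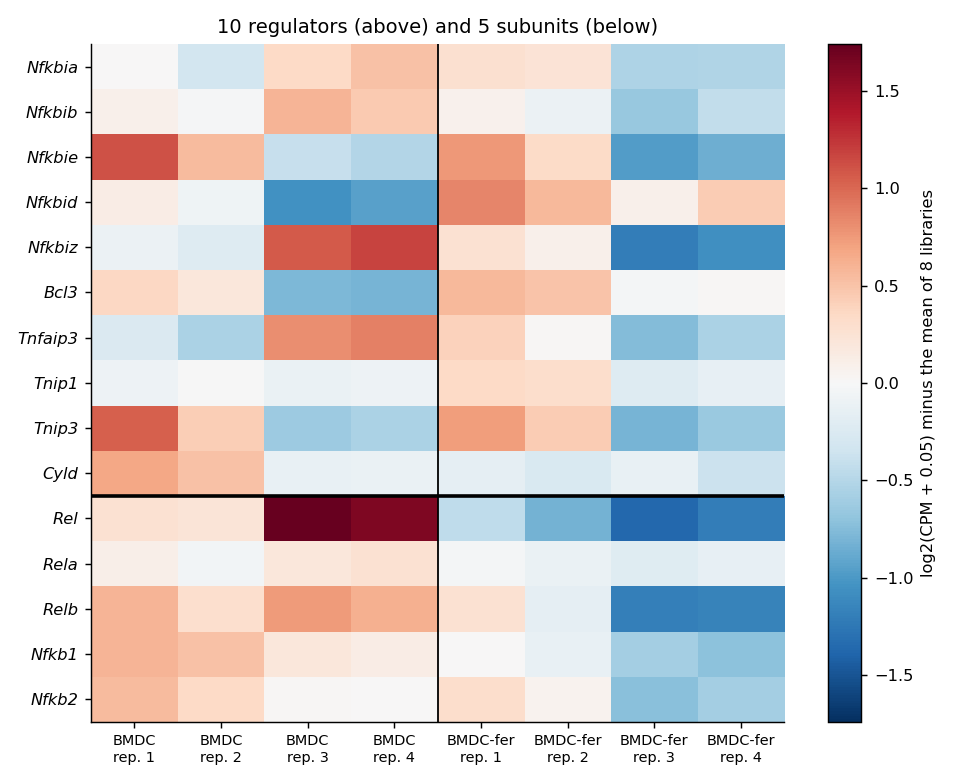
log2(CPM + 0.05) of the 10 regulators and, below the line, the 5 NF-kB subunits in each of the 8 libraries (columns), as the difference from each gene's mean over the libraries. Nfkbiz and Tnfaip3 are high in BMDC replicates 3 and 4 and low in BMDC-fer replicates 3 and 4, as is Rel, while Nfkbie and Tnip3 are high in replicates 1 and 2 of both groups.

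Levels between genes were compared per kilobase of exon. Nfkbia stood highest in both groups, at a mean of 104 CPM per kb in BMDC (74.1 to 132) and 87.1 in BMDC-fer (63.1 to 112), and its range did not overlap that of the next gene. In BMDC there followed Nfkbib at 21.1, Tnip1 at 20.6 and Nfkbie at 19.5 CPM per kb, then Tnfaip3 at 10.8, Nfkbid at 9.67, Bcl3 at 8.51, Tnip3 at 7.06, Nfkbiz at 6.8 and Cyld at 5.26 CPM per kb. The ranges of all these neighbours overlapped. In BMDC-fer, Tnip1 came next to Nfkbia at 23.2 CPM per kb, followed by Nfkbid at 18.1, Nfkbie at 15.4, Nfkbib at 14.4, Bcl3 at 11.6, Tnfaip3 at 7.65, Tnip3 at 6.33, Cyld at 3.7 and Nfkbiz at 3.52 CPM per kb, again with overlap between neighbours. Exon length is that of all annotated exons of a gene, so a gene with long unused exons is placed too low.

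**Figure D4:**
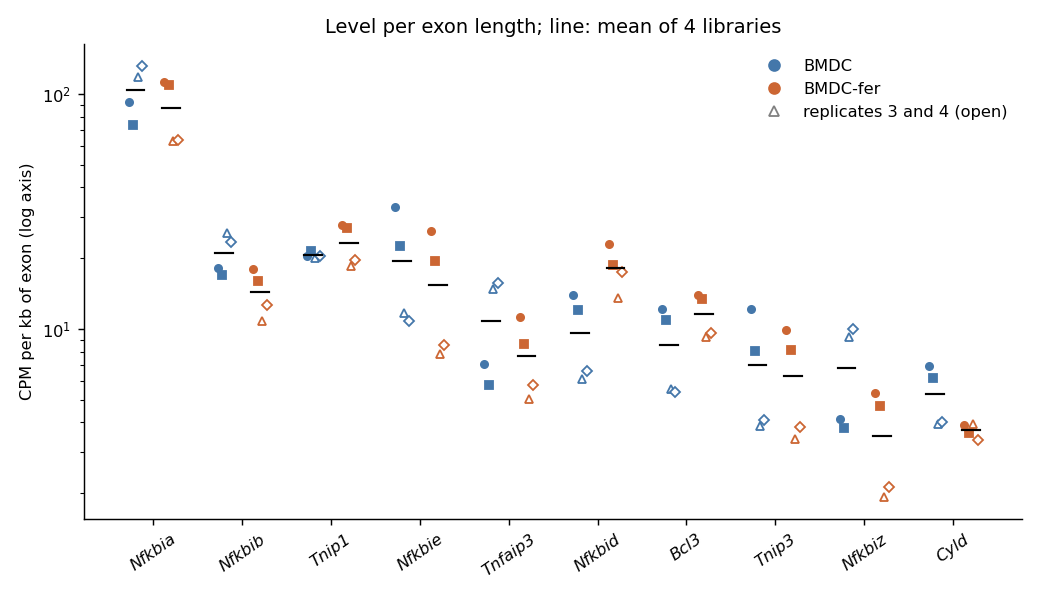
CPM per kb of exon (log axis) of the 10 genes in each library, ordered by the mean of BMDC, with open symbols for replicates 3 and 4 and a line at the mean of 4 libraries. Nfkbia lies at 63.1 or more in every library, and the ranges of the other genes run into each other.

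The genes most like Nfkbia over the 8 libraries, by the root-mean-square difference of log2 values centred on each gene's mean among 11459 genes, were AB124611 (0.0872), Lmo4 (0.108) and Rps18 (0.11), a ribosomal protein gene whose reads may be shared with pseudogene copies. Those most like Tnfaip3 were AC154492.2 (0.141), Gm34084 (0.143) and Atf4 (0.195). Among the 10 genes, Nfkbie and Tnip3 were each other's nearest gene (0.139), a pair picked after the values were seen.

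Of the 5 NF-kB subunits that these genes regulate, 2 were called over all libraries (9.38% of all tested genes were), both lower, and 0 higher. They were Rel and Nfkb1 (log2 -2.06, edgeR adjusted p = 0.016, and -0.69, adjusted p = 0.047), and Relb, Nfkb2 and Rela gave -0.99, -0.42 and -0.26 with adjusted p of 0.0792, 0.28 and 0.113. Rel lost its call without BMDC-fer replicate 4 (adjusted p = 0.0593), and Nfkb1 kept its call in 1 of the 8 fits without 1 library. Within replicates 1 and 2, Rel (-0.87) and Nfkb1 (-0.60) fell, 2 of 5 against 12.9% of all tested genes. In replicates 3 and 4, 4 of 5 fell, against 16.2% of all tested genes: Rel (log2 -2.97), Relb (-1.85), Nfkb1 (-0.82) and Nfkb2 (-0.68). For Rel and Relb the effect differed between the pairs (difference -2.11, edgeR adjusted p = 9.47e-05, and -1.48, adjusted p = 0.000832). In replicates 3 and 4 the falls of Nfkbia, Nfkbib, Nfkbiz and Tnfaip3 and the rises of Nfkbid and Bcl3 thus stood beside falls of 4 subunits. In replicates 1 and 2 the rises of Nfkbid and Tnfaip3 and the fall of Cyld stood beside falls of Rel and Nfkb1.

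NF-kB target genes, a list of 35 chosen from general knowledge, also differed by replicate pair. Of 34 tested, 17 rose and 5 fell in replicates 1 and 2, where 9.36% and 12.9% of all tested genes did. In replicates 3 and 4, 5 rose and 14 fell, where 16.8% and 16.2% of all tested genes did. The median log2 fold changes were 0.823 and -0.305, where all tested genes had medians of 0.0055 and 0.00512. With libraries scaled by size alone the first split was 14 against 7, and all tested genes split 801 against 3007 in place of 1442 against 1993. The effect differed between the pairs for 24 of the 34, against 37.8% of all tested genes. Over all libraries 3 were called higher, led by the chemokine gene Ccl2 (log2 1.89, edgeR adjusted p = 0.0333), and 5 lower, with Ccl5 lowest (-3.86, adjusted p = 0.00715). Of all tested genes 9.38% were called either way. Without 1 library Ccl2 was called in 2 of 8 fits and Ccl5 in 8 of 8. With the replicate block 6 were called higher (4.85% of all tested genes) and 7 lower (8.13%), with Tnf, Cxcl10 (log2 0.98, edgeR adjusted p = 0.0397) and Bcl2l1 (0.89, adjusted p = 0.0124) added above and Cd40 (-1.45, adjusted p = 0.0458) and Cd83 (-1.60, adjusted p = 0.0472) below. Tnf, the cytokine gene, was higher in both pairs (1.09 and 1.34, both called) but not called over all libraries (1.15, adjusted p = 0.197, and 0.00445 with the replicate block). Il1b was not called in either (0.55 and -0.17). Picked after their values were seen, Cxcl2 (3.00 and -1.41), Il1a (1.94 and -0.83), Cxcl1 (3.31 and -0.75) and Ptgs2 (1.64 and -1.13) had the signs of Tnfaip3, with a call in each pair. The other targets called in both pairs kept the same sign. Tnf, Ccl2, Ccl3, Plau and Bcl2l1 rose in both, and Ccl5, Ccl22, Ccr7, Cd83 and Lcn2 fell in both. By the edgeR adjusted p alone, 5.67% of all tested genes passed in both pairs with opposite signs.

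**Figure D5:**
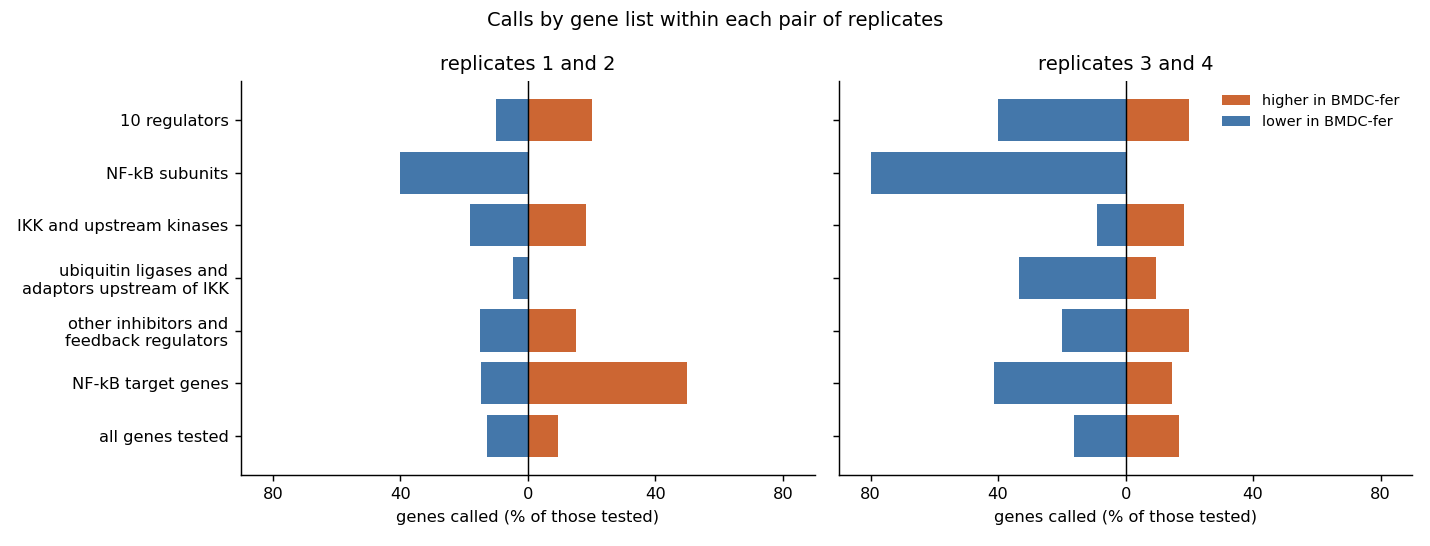
Share of the tested genes of each list called higher (right of 0) or lower (left of 0) in BMDC-fer, in percent, within replicates 1 and 2 and within replicates 3 and 4. Of 34 NF-kB target genes 17 were called higher in the first pair and 14 lower in the second, and of the 10 regulators 2 were called higher in each pair and 1 and 4 lower. Of all tested genes 9.36% were called higher and 12.9% lower in the first pair, and 16.8% and 16.2% in the second.

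Further regulators of the pathway are given by list, where over all libraries 9.38% of all tested genes were called. Of all tested genes, 9.36% rose and 12.9% fell in replicates 1 and 2, and 16.8% rose and 16.2% fell in replicates 3 and 4. Of 20 further inhibitors and feedback regulators, Nkiras1, which encodes an I-kappa-B-binding Ras-like protein, rose (log2 0.64, edgeR adjusted p = 0.0412) and Sigirr, which encodes an inhibitory receptor of the IL-1 receptor family, fell (-1.33, adjusted p = 0.0131), with a list median of -0.0212 against 0.000687 for all tested genes. Nkiras1 was called in 0 of the 8 fits without 1 library (adjusted p up to 0.108), and Sigirr lost its call without BMDC-fer replicate 4 (adjusted p = 0.0526). With the replicate block Irak3, which encodes an inhibitory kinase-like protein, was called too (0.58, edgeR adjusted p = 0.0222). Within the pairs, 3 rose and 3 fell in replicates 1 and 2, and 4 rose and 4 fell in replicates 3 and 4. Of 11 IKK and upstream kinases, 0 were called over all libraries, with Ikbke highest (1.02, adjusted p = 0.0707, called with the replicate block at 0.00533) and Tab3 lowest (-0.95, adjusted p = 0.0521, called with the block at 0.0447). Map3k14, the NIK kinase gene, was also called with the block (-0.76, edgeR adjusted p = 0.0447). By pair, 2 rose and 2 fell, then 2 rose and 1 fell. Of 21 ubiquitin ligases and adaptors, Traf6 (-1.54, edgeR adjusted p = 0.0466, 0.0634 with the block) and Birc2 (-0.72, adjusted p = 0.0191) fell and 0 rose. With the block Traf1 was called lower (-1.33, edgeR adjusted p = 0.0109). Traf6 kept its call in 2 of the 8 fits without 1 library and Birc2 in 6, losing it without BMDC-fer replicate 2 or 4. Rnf31, a subunit gene of the linear ubiquitin ligase that Cyld opposes, was highest (0.40, adjusted p = 0.455), and by pair 0 rose and 1 fell, then 2 rose and 7 fell.

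Markers of cell types moved with the groups and with the replicate pairs. For comparison, 9.38% of all tested genes were called either way over all libraries, and 8.13% were called lower with the replicate block. Summed over 10 mature dendritic cell markers, of which Ccr7, Ccl22, Cd40, Cd80 and Cd83 also stand among the NF-kB targets, the level was 1710 to 2460 CPM in BMDC, 849 to 1540 CPM in BMDC-fer replicates 1 and 2, and 396 to 412 CPM in BMDC-fer replicates 3 and 4. All 10 dendritic cell markers together made 7590 to 18000 CPM in BMDC, against 3440 to 8680 CPM in BMDC-fer. Of the 9 mature dendritic cell markers tested, 5 were called lower and 0 higher (8 lower with the replicate block). The 10 macrophage markers made 14900 to 19200 CPM in BMDC replicates 1 and 2, 28200 to 30000 CPM in BMDC replicates 3 and 4, and 26300 to 36800 CPM in BMDC-fer, but 0 of them were called higher over all libraries and Adgre1, which encodes F4/80, was called lower (log2 -0.81, edgeR adjusted p = 0.0119). Neutrophil markers summed to 53.3 to 274 and 21.1 to 59.1 CPM, mast cell and basophil markers to 33.8 to 65.3 and 14.5 to 33.1 CPM, NK cell markers to 7.16 to 15.6 and 0.934 to 4.78 CPM (Eomes and Gzma at 0), and B cell markers to at most 1.44 and 0.602 CPM, each range given for BMDC and then BMDC-fer. The NK cell sum was mostly Klrk1 (0.743 to 15.5 CPM over the 8 libraries). Likewise, the mast cell and basophil sum was mostly Kit (4.84 to 23.6 CPM) and Gata2 (4.23 to 35.8 CPM). Of the neutrophil markers 4 of 10 were called lower, 8 with the block. The T cell markers summed to 29.8 to 43.1 and 29.2 to 53.9 CPM, nearly all of it Cd28 (27.5 to 53.0 CPM over the 8 libraries, log2 0.28, edgeR adjusted p = 0.443). Of the other T cell markers, Lck fell (0.87 against 0.287 CPM, log2 -1.59, adjusted p = 0.0482), Cd3g was at 1.73 against 0.135 CPM (log2 -3.57, adjusted p = 0.0696, and called with the block at 0.00702), Bcl11b was at 0 and the rest lay at 0 to 0.367 CPM. The part of these cell types in the differences of the 10 genes was not tested.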

How the data were processed

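RNA of BMDC was enriched for mRNA with oligo(dT) beads and sequenced. Per the labels and the study's methods, the authors used HISAT2 for mapping, featureCounts for counting on genes and DESeq2 for testing; versions, and whether counting used strand, are not given in the sources used here. The build is mm10 per the submitters' processing notes. The deposited values are raw counts per mouse gene, used unchanged.

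Libraries were grouped and numbered by their titles. Counts were fitted in R 4.3.3 with edgeR 4.0.16 (TMM, filterByExpr with a count minimum of 10, quasi-likelihood tests, Benjamini-Hochberg over 15411 genes), without a block as in the study's methods. The fit with 4 cells, group by replicate pair (1 and 2, 3 and 4), gave the effects within pairs and their difference. The pairs were set by the split seen in earlier results of these data, since the labels name none. Standard errors are the size of the log2 fold change over the square root of F. Single genes were compared by exact permutation of log2(CPM + 0.05) with scipy 1.17.1, which treats all 8 libraries as exchangeable. Gene models were GENCODE M21 (GRCm38) and promoters RefSeq (GRCm38.p6). In simulated data the test over all libraries called 40.2% of genes changed 2-fold and 79.6% of those changed 4-fold. With the replicate block these shares were 50.5% and 90.7%, and for the interaction term 58.6% and 76%. False calls made up 3 of 120, 10 of 147 and 12 of 146 calls. For the test over all libraries, the simulated libraries varied independently, without the split by replicate pair. Its rates may therefore differ in these data. Chi-square per gene between replicates of a group was 9.06 or more, so none was counted as a duplicate.

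Same-numbered libraries shared deviations from their group means (correlation across genes of 0.446, 0.355, 0.313 and 0.343 for numbers 1 to 4). The split of both groups by replicate pair can by itself make these values positive, and correlations between different numbers are not given here. The values therefore cannot show that single numbers pair the samples, and the block by replicate number is an assumption. The blocked value is given where it changes a call of a pathway gene, with counts for the main marker lists.

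Named are all 10 genes, the 5 subunits, the highest and lowest gene of each pathway list, the called genes among other inhibitors, Tnf and Il1b, and the 3 genes most like Nfkbia and Tnfaip3 (mean count of at least 100). Genes whose call the block changed, targets called in both pairs and single marker genes were named after their values were seen. The 10 genes, the lists and the tests were chosen with earlier results of these data known. Alternatives were other scalings, DESeq2 1.42.0, other filters, the replicate block, a covariate for the replicate pair, no fold threshold, a pseudocount of 1 and each library left out. For the pair effects, leaving out libraries and 2 or 3 of the scalings were added after the data were seen, as were the contrasts between replicate pairs within a group.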

Additional observations from a re-analysis of the deposited data

Results flagged for a closer look

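For 8 of the 10 genes the effect of the BMDC-fer condition differed between replicates 1 and 2 and replicates 3 and 4 by the edgeR interaction test (Benjamini-Hochberg adjusted p of 0.05 or less), against 37.8% of all tested genes. The effect in replicates 3 and 4 minus that in replicates 1 and 2, on the log2 scale, was -2.59 for Nfkbiz, -2.12 for Tnfaip3, -1.39 for Nfkbia, -1.02 for Nfkbib and -0.46 for Tnip1. It was 0.68 for Cyld, 0.59 for Nfkbid and 0.53 for Bcl3. The labels do not say how the replicate pairs differ, and the cause was not tested. In a Dixon test of each gene in each group of 4 libraries, 20 groups in all, 0 libraries stood out from the other 3. Within a group, replicates 1 and 2 often lay apart from replicates 3 and 4. With such a split this test can hardly single out a library, so no conclusion is drawn from it.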

How the results depend on the processing

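The count of 0 called genes among the 10 held under the RLE, upper-quartile and library-size scalings, under both filters and without the fold threshold. It was 1 (Nfkbid) with the replicate block, with the pair covariate and with DESeq2, 3 within replicates 1 and 2, 6 within replicates 3 and 4, and 0 to 1 without 1 library. The replicate block changed no other member's call, and the calls it changed in the pathway lists stand in the text. Over all genes, 1445 were called, 2000 with the replicate block, 2815 with the pair covariate, 2415 with DESeq2, 3435 and 5092 within the pairs, and 565 (without BMDC-fer replicate 4) to 1440 without 1 library. Scaling by library size alone split the calls 300 higher and 1179 lower in place of 534 and 911. The pair difference was called for 3960 to 5726 genes and 6 to 8 members without 1 library, the fewest members without BMDC replicate 4 (Nfkbid and Bcl3 lost), and for 7 members under each of the other scalings and the stricter filter.

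Signs reversed against the value over all libraries within replicates 1 and 2 for Nfkbia (0.41), Nfkbiz (0.34) and Tnfaip3 (0.62) and within replicates 3 and 4 for Tnip1 (-0.0861). Leaving out 1 library gave ranges that crossed 0 for uncalled values only: Nfkbie -0.70 to 0.0458 and Tnip3 -0.45 to 0.25 overall (also 0.0542 and 0.0282), Nfkbib -0.12 to 0.0275, Nfkbie -0.54 to 0.00651 and Tnip3 -0.43 to 0.16 within replicates 1 and 2, and, for the pair difference, Nfkbie -0.45 to 0.0926 (also 0.0606, and 0.0384 under library-size scaling) and Tnip3 -0.29 to 0.31 (also -0.0876, -0.0505 and -0.00701). Of the difference of Nfkbid, the values without 1 library ran from 0.41 to 0.77, and it missed the threshold under RLE (adjusted p = 0.0555), upper-quartile scaling (0.061) and the stricter filter (0.0551). No exact test changed sides with a pseudocount of 1. Apart from scaling and 1-library changes named here and in the text, no cause was tested, and 2 libraries against 2 limit the within-pair values. Where a left-out library leaves 1 in a pair, that library is assumed to vary like the others.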
